A study of Mus musculus with 4 samples.

Results

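The genes described here encode 8 dual specificity phosphatases (*Dusp1*, *Dusp2*, *Dusp4*, *Dusp5*, *Dusp6*, *Dusp8*, *Dusp10* and *Dusp14*) and 2 Sprouty proteins (*Spry2* and *Spry4*), measured by RNA-seq in isolated mouse islets at 2 glucose concentrations. They were taken by symbol from the deposited table, which holds 33923 entries under 24012 symbols. Each of the 10 genes had 1 entry. The islets came from wild type C57bl6 male mice of 3 months, were pooled, kept overnight in 11 mM glucose and then starved for 2 h in 2.8 mM glucose. The LoGlu group was then held in 2.8 mM glucose and the HiGlu group in 16.8 mM glucose, with 2 libraries of total RNA per group, numbered as replicates 1 and 2. The series' own design text gives 12 h for both groups, whereas the sample labels give 2 h for LoGlu and 12 h for HiGlu, so a difference in time cannot be told apart from the difference in glucose if the labels hold. Because every library came from the same pool of islets, the p-values measure the spread between these libraries, which may be technical.

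MAP kinases relay signals from growth factor, hormone and nutrient receptors to the nucleus through a chain of phosphorylations, and the MAP kinase phosphatases end that signal by removing the phosphates from the threonine and tyrosine of the kinase's activation loop. They fall into nuclear enzymes that are induced by the signal itself (*Dusp1*, *Dusp2*, *Dusp4*, *Dusp5*), cytoplasmic enzymes selective for ERK (*Dusp6*, with *Dusp7* and *Dusp9*) and enzymes that prefer the stress kinases JNK and p38 (*Dusp8*, *Dusp10*, *Dusp16*). *Dusp14* is an atypical member that lacks the domain by which the others dock on their kinase. Sprouty proteins act further upstream and restrain the passage from receptor tyrosine kinases to ERK. In beta cells glucose activates ERK through calcium entry, and several of these genes are known in other cells as transcriptional targets of ERK that feed back on it.

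Of the 10 genes, 6 averaged 1 RPKM or more (reads divided by library depth and by length, here taken as the genomic span with introns). These entered the main test, limma on log2(RPKM + 0.5) with p-values adjusted by Benjamini-Hochberg over all transcripts tested. All 6 had an adjusted p-value under 0.05, where 33.4% of the 7867 transcripts tested did. *Dusp1*, *Dusp4*, *Dusp5* and *Dusp6* were higher in HiGlu, as were 10.7% of all transcripts, and *Dusp8* and *Spry2* were lower, as were 22.8% of all. *Dusp5* reached the minimum through the HiGlu libraries alone, where it was high. Of the 4 genes under the minimum, *Dusp10*, *Dusp14* and *Spry4* were higher in HiGlu by a second test that admits low transcripts, limma's voom on reads reconstructed from the RPKM values, and *Dusp2* was too low for either. Voom called 42.7% of its 17508 transcripts, 13.7% higher and 29.0% lower. Where limma was run without a minimum, it called 14.1% of 26272 transcripts (4.56% higher and 9.52% lower) and 6 of the 10 genes, namely *Dusp1*, *Dusp4*, *Dusp5*, *Dusp10*, *Dusp14* and *Spry4*, all higher. Within each of the 10 genes the ranges of the groups did not overlap, which for *Dusp2* rested on a few reads. The same was so for 70.4% of the transcripts in the main test. That set does not hold *Dusp2*, *Dusp10*, *Dusp14* or *Spry4*, and no such share was computed for lower transcripts.

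**Figure D1:**
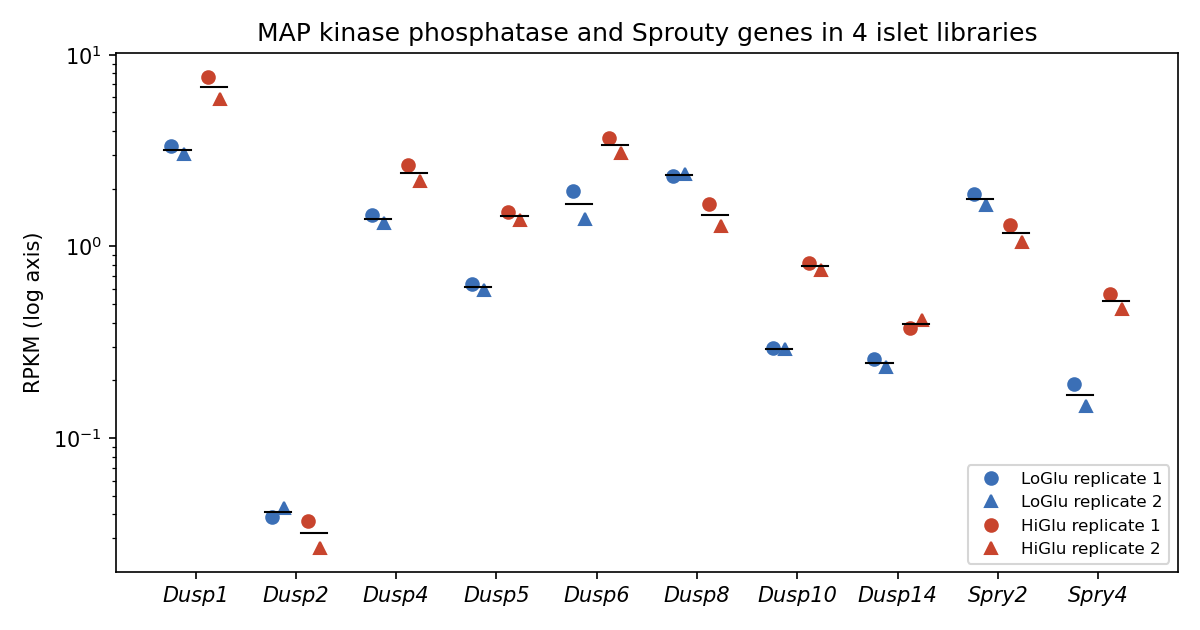
RPKM of each of the 10 genes (logarithmic axis) in the 2 LoGlu libraries (blue) and the 2 HiGlu libraries (red), with replicate 1 as circles, replicate 2 as triangles and a bar at the mean of the group. *Dusp8* and *Spry2* step down from LoGlu to HiGlu, 7 genes step up, and *Dusp2* lies well below every other gene at 0.0266 to 0.0434 RPKM.

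The depth recovered from the table was 51963000 to 58464000 reads in LoGlu and 50801000 to 60710000 reads in HiGlu. The transcripts tested had a median log2 fold change of -0.11, so each change below is also given relative to that median. Of the changed transcripts, 31.9% were higher with the deposited scaling, 42.3% of 3730 after quantile normalization, 44.1% of 3765 after centring on library medians and 42.6% of 3621 with library totals taken without the 10 most abundant transcripts. None of these scalings turned the direction of *Dusp1*, *Dusp4*, *Dusp5*, *Dusp6*, *Dusp8* or *Spry2*, the genes for which they were run. Values are averages over whole islets, in which more cells of a type and more RNA per cell cannot be told apart. The 8 beta cell markers summed to 20565 and 22913 RPKM in LoGlu and to 40959 and 43731 RPKM in HiGlu. Nearly all of that sum was *Ins1*, *Ins2* and *Iapp*. In the main test 6 of the 8 were higher in HiGlu, insulin genes included. *Slc2a2* (adjusted p = 0.0607) and *Nkx6-1* (adjusted p = 0.126) were not called there, whereas voom called all 8 higher. Acinar markers, which come from exocrine tissue carried along with islets, summed over 9 genes to 119 and 341 RPKM in replicates 1 and 2 of LoGlu and to 293 and 595 RPKM in those of HiGlu. Of the 8 that were tested none was called in the main test, whereas voom called all 9 higher. The summed markers of endothelial cells (5.26 to 8.10 RPKM in LoGlu, 6.79 to 9.88 in HiGlu), macrophages (11.7 to 15.8 and 12.2 to 17.0) and stromal cells (2.33 to 4.19 and 3.10 to 3.22) overlapped between the groups, and none of the 5 such genes above the minimum was called. Voom called 3 of 7 endothelial and 1 of 7 macrophage markers higher. The alpha cell markers summed to 1698 to 2217 RPKM in LoGlu and 1538 to 2172 in HiGlu, and those of delta cells to 447 to 598 and 695 to 703. Nearly all of the alpha cell sum was *Gcg* (1653 to 2155 RPKM in LoGlu and 1474 to 2100 in HiGlu). Nearly all of the delta cell sum was *Sst* (440 to 587 RPKM in LoGlu and 686 to 692 in HiGlu). None of the alpha, delta and PP cell markers tested was called in the main test. Voom called 1 of 6 alpha, 1 of 3 delta and 1 of 2 PP cell markers higher, and 1 alpha cell marker lower. PP cell markers summed to 1153 to 1471 RPKM in LoGlu and 1412 to 1878 in HiGlu, duct markers to 35.2 to 40.3 and 40.9 to 46.7, with *Krt7* lower (-0.55, adjusted p = 0.0150) and *Spp1* higher (0.67, adjusted p = 0.0358) in the main test, and Schwann cell markers to 1.46 to 1.47 and 0.560 to 0.614. Voom called 2 duct markers higher and 1 lower of 4 tested, and 1 Schwann cell marker lower of 3 tested. The part of these cells in the values of the phosphatase and Sprouty genes was not tested.

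Promoter sequence was read for the genes whose windows held a match to the CRE (bound by CREB, which calcium and cAMP activate) in full or to the CArG box (bound by serum response factor, which acts with ERK-activated cofactors). These are the classical elements of immediate early genes. RefSeq windows of 300 bases on GRCm38.p6, from 250 bases before the gene start to 50 bases after it, were matched for 8 of the 10 genes, all but *Dusp4* and *Spry4*. The 3 windows shown are those of *Dusp1* (chr17:26508423-26508722, minus strand), *Dusp5* (chr19:53528895-53529194, plus strand) and *Dusp8* (chr7:142095235-142095534, minus strand), each 5′ to 3′ along the gene, with capitals on every match to the CRE, its core or the CArG box.
Dusp1: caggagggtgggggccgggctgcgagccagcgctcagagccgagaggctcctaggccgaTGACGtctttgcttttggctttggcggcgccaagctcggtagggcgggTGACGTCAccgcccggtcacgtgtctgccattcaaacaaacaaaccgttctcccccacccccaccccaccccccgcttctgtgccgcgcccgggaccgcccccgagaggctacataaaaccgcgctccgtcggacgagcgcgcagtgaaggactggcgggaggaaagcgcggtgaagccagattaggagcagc
Dusp5: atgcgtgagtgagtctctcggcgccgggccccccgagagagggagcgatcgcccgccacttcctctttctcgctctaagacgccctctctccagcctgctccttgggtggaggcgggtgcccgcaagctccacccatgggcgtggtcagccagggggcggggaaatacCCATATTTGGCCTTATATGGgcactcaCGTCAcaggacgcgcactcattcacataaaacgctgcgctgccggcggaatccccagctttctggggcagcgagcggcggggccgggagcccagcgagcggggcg
Dusp8: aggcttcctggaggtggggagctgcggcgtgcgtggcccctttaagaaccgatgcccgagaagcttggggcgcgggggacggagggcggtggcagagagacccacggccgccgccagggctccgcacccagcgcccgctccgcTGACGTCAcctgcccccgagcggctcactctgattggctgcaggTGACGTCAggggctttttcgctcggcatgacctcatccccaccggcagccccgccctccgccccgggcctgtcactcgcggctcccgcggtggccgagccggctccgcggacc

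Searched on both strands, the full CRE (TGACGTCA) was found at position -143 of *Dusp1* relative to the gene start and at -107 and -63 of *Dusp8*, and in 588 of 32851 mouse windows (1.79%). The gene with 1 full CRE, *Dusp1*, was higher in HiGlu and the gene with 2, *Dusp8*, was lower. A pair of adjoining CArG boxes began at -82 and -72 of *Dusp5*, in a window of a kind that makes up 1.63% of all for at least 1 such box. The core of the CRE (TGACG), which also lies inside every full CRE, was in 4 of the 8 windows (*Dusp1*, *Dusp2*, *Dusp5*, *Dusp8*) and in 20.8% of all. An E-box (CACGTG) was found in *Dusp1* and *Dusp2* (7.15% of all windows), and the ETS core (CCGGAA) in *Dusp14* and *Spry2* (14.9%). None of the 8 windows held the AP-1 site (TGANTCA, 7.81% of all) or the letters TATAAA (13.6%), and those of *Dusp6* and *Dusp10* held none of the 7 motifs. A match is a run of letters and not evidence that a factor binds there.

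Among the nuclear inducible phosphatases, *Dusp1*, *Dusp4* and *Dusp5* rose in HiGlu and *Dusp2* was close to absent. *Dusp1*, which encodes the phosphatase MKP-1 that acts on JNK, p38 and ERK, lies at chr17:26642535-26645464 (minus strand, mm9) with 4 exons. It measured 3.35 and 3.04 RPKM in LoGlu and 7.70 and 5.88 RPKM in HiGlu. Replicate 1 of HiGlu was the highest library, yet the lower HiGlu library still stood well above both LoGlu libraries. The means were 3.19 ± 0.219 and 6.79 ± 1.28 RPKM (SD, n = 2), a ratio of 2.13, and the log2 fold change was 0.97 ± 0.14 (SE, adjusted p = 0.00303), or 1.08 above the median of all transcripts. Its rise was larger than that of 97.1% of the transcripts tested. Voom gave 1.08 ± 0.14 (adjusted p = 9.5e-06) from 574 and 463 reads in LoGlu and 1369 and 876 reads in HiGlu.

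*Dusp4*, which encodes the related nuclear phosphatase MKP-2, lies at chr8:35870351-35882948 (plus strand) with 4 exons. Its levels were 1.46 and 1.32 RPKM in LoGlu and 2.65 and 2.19 RPKM in HiGlu. As for *Dusp1*, replicate 1 was the higher library in each group, and the groups stood apart. From 1.39 ± 0.0989 to 2.42 ± 0.329 RPKM (SD, n = 2) the ratio was 1.74, and the log2 fold change of 0.62 ± 0.10 (adjusted p = 0.00552) was 0.73 above the median of all transcripts. Voom gave 0.80 ± 0.12 (adjusted p = 3.9e-05).

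*Dusp5*, which encodes a nuclear phosphatase selective for ERK, lies at chr19:53603599-53616921 (plus strand) with 4 exons and carries the pair of CArG boxes printed above. It measured 0.640 and 0.595 RPKM in LoGlu and 1.504 and 1.37 RPKM in HiGlu. Here the 2 libraries of each group lay close together, and the gap between the groups was wide against that spread. The means were 0.617 ± 0.0318 and 1.44 ± 0.0964 RPKM (SD, n = 2), a ratio of 2.33. The log2 fold change of 0.79 ± 0.08 (adjusted p = 7.9e-04) is reduced by the 0.5 RPKM added to a low gene, and voom, which adds far less, gave 1.22 ± 0.13 (adjusted p = 6.4e-07) from 498 and 412 reads in LoGlu and 1216 and 926 reads in HiGlu. Relative to the median of all transcripts these were 0.90 and 1.34.

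*Dusp2*, which encodes PAC-1, a phosphatase known from activated leukocytes, lies at chr2:127161895-127164112 (plus strand) with 4 exons. Its 0.0386 and 0.0434 RPKM in LoGlu stood for 5 reads in each library, and its 0.0371 and 0.0266 RPKM in HiGlu for 5 and 3 reads. The groups are set apart by these few reads alone. Over the groups there were 10 and 8 reads, a ratio per read sequenced of 0.792 with an exact 95% interval of 0.272 to 2.23 that covers counting error only, so a change of *Dusp2* was not detectable at this depth. Without a minimum, limma gave a log2 fold change of -0.02 (adjusted p = 0.299).

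Of the cytoplasmic phosphatases of ERK, *Dusp6* rose and *Dusp7* fell. *Dusp6* encodes MKP-3, a widely used readout of ERK signalling, and lies at chr10:98725865-98730122 (plus strand). It measured 1.95 and 1.40 RPKM in LoGlu and 3.67 and 3.08 RPKM in HiGlu. The LoGlu libraries differed more from each other than for any other of the 10 genes, and both were under both HiGlu libraries. The means were 1.67 ± 0.393 and 3.38 ± 0.416 RPKM (SD, n = 2), a ratio of 2.02, and the log2 fold change of 0.84 ± 0.14 (adjusted p = 0.00562) lay 0.95 above the median of all transcripts. Voom gave 1.02 ± 0.16 (adjusted p = 5.2e-05) from 309 to 486 reads in LoGlu and 667 to 949 reads in HiGlu. With transcripts of any level in the limma test the adjusted p of *Dusp6* was 0.0595.

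*Dusp7*, the closest relative of *Dusp6* and no member of the set, was 2.62 and 2.73 RPKM in LoGlu and 1.503 and 1.516 RPKM in HiGlu (log2 fold change -0.66 ± 0.08, adjusted p = 0.00182). Libraries of a group agreed closely for this gene. Within a library, where the depth cancels out, *Dusp6* over *Dusp7* was 0.746 and 0.512 in LoGlu and 2.44 and 2.03 in HiGlu, a log2 difference of 1.85. With 2 libraries against 2, an exact permutation test of such a ratio cannot go below p = 0.333, so the ratios are given without a test. The more abundant of the pair, per kilobase of genomic span, was thus *Dusp7* in both LoGlu libraries and *Dusp6* in both HiGlu libraries. *Dusp9*, the other gene of this class, was at 0.0244 ± 0.00113 RPKM in LoGlu and 0.0472 ± 0.0153 RPKM in HiGlu (SD, n = 2), with a log2 fold change of 0.06 in limma without a minimum (adjusted p = 0.163).

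The phosphatases of JNK and p38 moved in opposite directions, with *Dusp8* lower and *Dusp10* higher in HiGlu. *Dusp8*, best known from brain and heart, lies at chr7:149265395-149281177 (minus strand) with 7 exons, and its promoter window holds the 2 full CREs. Its levels were 2.32 and 2.38 RPKM in LoGlu and 1.66 and 1.27 RPKM in HiGlu. The LoGlu libraries were nearly equal and the HiGlu libraries were further apart, without meeting them. The means of 2.35 ± 0.0419 and 1.47 ± 0.275 RPKM (SD, n = 2) put LoGlu 1.60 times above HiGlu. The log2 fold change was -0.54 ± 0.11 (adjusted p = 0.0108), -0.43 relative to the median of all transcripts, and 8.29% of the transcripts tested had a lower one. With voom it was -0.69 ± 0.12 (adjusted p = 1.7e-04) from 1954 to 2144 reads in LoGlu and 1021 to 1593 reads in HiGlu, and without a minimum the adjusted p in limma was 0.0674.

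*Dusp10*, which encodes MKP-5, lies at chr1:185858260-185899515 (plus strand) with 4 exons spread over 41.3 kb. It measured 0.295 and 0.290 RPKM in LoGlu and 0.819 and 0.757 RPKM in HiGlu, with means of 0.292 ± 0.00304 and 0.788 ± 0.0438 RPKM (SD, n = 2) and a ratio of 2.70. The replicates of each group agreed closely, and the groups stood far apart. The gene lay under the minimum of the main test. With its RPKM taken as set over this long span, 622 to 710 reads in LoGlu and 1587 to 2052 reads in HiGlu fell on it. Voom gave a log2 fold change of 1.43 ± 0.11 (adjusted p = 2.0e-08), larger than that of 98.2% of its transcripts, and limma without a minimum gave 0.70 ± 0.05 (adjusted p = 0.0240). The ratio of *Dusp10* to *Dusp8* within a library was 0.127 and 0.122 in LoGlu and 0.493 and 0.595 in HiGlu. *Dusp16*, the remaining gene of this class, was at 0.278 ± 0.00325 RPKM in LoGlu and 0.220 ± 0.00113 RPKM in HiGlu, and voom gave -0.34 ± 0.11 (adjusted p = 0.0171).

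The lncRNA whose nearest gene is *Dusp10* lies 94.0 kb beyond the end of that gene, at chr1:185993513-185999479. It measured 0.0459 and 0.0613 RPKM in LoGlu and 0.635 and 0.960 RPKM in HiGlu, from 16, 19, 230 and 291 reads. Its log2 fold change by voom was 3.83 ± 0.35 (adjusted p = 1.3e-07), against 1.43 for *Dusp10* itself, in the same direction. Whether the 2 transcripts are linked was not tested.

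*Dusp14*, the atypical phosphatase, had the smallest log2 fold change of the 7 genes that were higher by voom. It lies at chr11:83861543-83881859 (minus strand) with 3 exons over 20.3 kb. It measured 0.258 and 0.236 RPKM in LoGlu and 0.375 and 0.414 RPKM in HiGlu, and unlike most of the genes here it was higher in replicate 2 of HiGlu than in replicate 1. The means were 0.247 ± 0.0154 and 0.394 ± 0.0276 RPKM (SD, n = 2), a ratio of 1.60. Voom gave 0.67 ± 0.15 (adjusted p = 0.00176) from 249 to 306 reads in LoGlu and 427 to 462 reads in HiGlu, and limma without a minimum 0.26 ± 0.04 (adjusted p = 0.0435).

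The 2 Sprouty genes moved apart. *Spry2* lies at chr14:106291166-106296036 (minus strand) with 2 exons and measured 1.87 and 1.65 RPKM in LoGlu and 1.29 and 1.05 RPKM in HiGlu. The lower LoGlu library was above the higher HiGlu library, by somewhat more than the libraries of a group differed. From 1.76 ± 0.161 to 1.17 ± 0.168 RPKM (SD, n = 2), LoGlu was 1.501 times above HiGlu, and the log2 fold change was -0.44 ± 0.10 (adjusted p = 0.0176), or -0.32 relative to the median of all transcripts. *Spry2* thus fell, although 13.3% of the transcripts tested fell further. Its adjusted p was 0.0796 when transcripts of any level were tested, and voom gave -0.58 ± 0.15 (adjusted p = 0.00518).

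*Spry4*, also with 2 exons, measured 0.192 and 0.146 RPKM in LoGlu and 0.563 and 0.470 RPKM in HiGlu, from 168, 114, 513 and 358 reads. It had the largest ratio of the 10 genes, 3.06, from 0.169 ± 0.0320 to 0.516 ± 0.0661 RPKM (SD, n = 2). Both HiGlu libraries lay above both LoGlu libraries by more than the libraries of a group differed. The log2 fold change was 1.62 ± 0.19 with voom (adjusted p = 2.7e-06), larger than that of 98.8% of its transcripts, and 0.60 ± 0.07 in limma without a minimum (adjusted p = 0.0306). *Spry4* over *Spry2* was 0.102 and 0.0888 in the LoGlu libraries and 0.436 and 0.445 in the HiGlu libraries, a log2 difference of 2.21. Per kilobase of span *Spry2* stayed the more abundant of the pair in all 4 libraries.

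**Figure D2:**
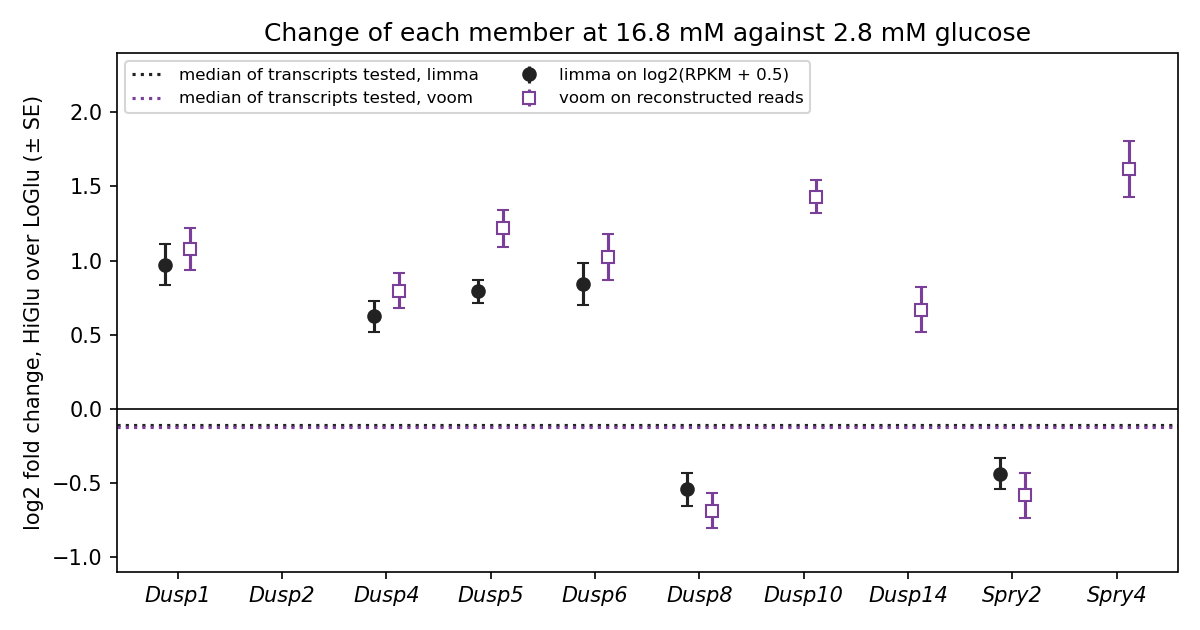
Log2 fold change of HiGlu over LoGlu with its SE for each of the 10 genes, by limma on log2(RPKM + 0.5) (filled circles, genes averaging 1 RPKM or more) and by voom on reconstructed reads (open squares, mean of at least 20 reads), with the medians of all transcripts as dotted lines at -0.11 and -0.12. Both tests put *Dusp8* and *Spry2* under their median and every other gene with a value above it, from 0.62 for *Dusp4* in limma to 1.62 for *Spry4* in voom, and neither gives a value for *Dusp2*.

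Which of these genes was the most abundant depended on the length by which reads were divided. Values under 1000 reads were checked for whole numbers of reads, to within 0.1 read. Multiplied by the genomic span with introns, 19 of 29 were whole, against 3 of 29 with the summed exons. Where a gene had several annotated spans, the longest stood unless another gave nearly whole and clearly better reads. The summed exons had no such choice, so the contrast can favour the span. The deposited values were taken as levels per kilobase of span, although not every value was whole. For its alpha and beta cell libraries the paper describes RPKM by length of exon and counts of reads on RefSeq exons. That description goes against the span reading. Read per kilobase of span, the deposited values understate spliced RNA most in genes with long introns. There the span is up to 14.8 times (*Dusp10*) and 14.0 times (*Dusp14*) the length of the exons. Per kilobase of span *Dusp1* was the highest of the 10 in LoGlu and in HiGlu. In LoGlu *Dusp8* came next, followed by *Spry2*, *Dusp6* and *Dusp4*, whose neighbours in that order were not separated beyond the spread of the 2 libraries. In HiGlu *Dusp1* was followed by *Dusp6* and *Dusp4*, each separated from the next, and then by *Dusp8* and *Dusp5*, which overlapped. *Dusp2* was the lowest in LoGlu and in HiGlu.

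Per kilobase of exon every read was taken as exonic, which gives an upper bound if reads on introns were counted too. The level of *Dusp10* in HiGlu was then 11.6 ± 0.648 RPKM, of *Dusp4* 11.1 ± 1.51 and of *Dusp1* 9.996 ± 1.89 (SD, n = 2). Neighbours in this order overlapped. *Dusp5* followed at 7.73 ± 0.519 RPKM, apart from those above and below it. *Dusp14* (5.54 ± 0.388), *Dusp6* (5.15 ± 0.633) and *Dusp8* (4.82 ± 0.903) formed the next overlapping run, above *Spry2* (2.74 ± 0.392) and *Spry4* (1.69 ± 0.216). In LoGlu the highest by exon was *Dusp8* at 7.73 ± 0.138 RPKM, followed by *Dusp4* at 6.40 ± 0.455 and *Dusp1* at 4.70 ± 0.322, with no overlap between them. *Dusp8* thus stood at the head of the order in LoGlu and in the seventh place in HiGlu. No other annotated gene overlapped the span of any of the 10.

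**Figure D3:**
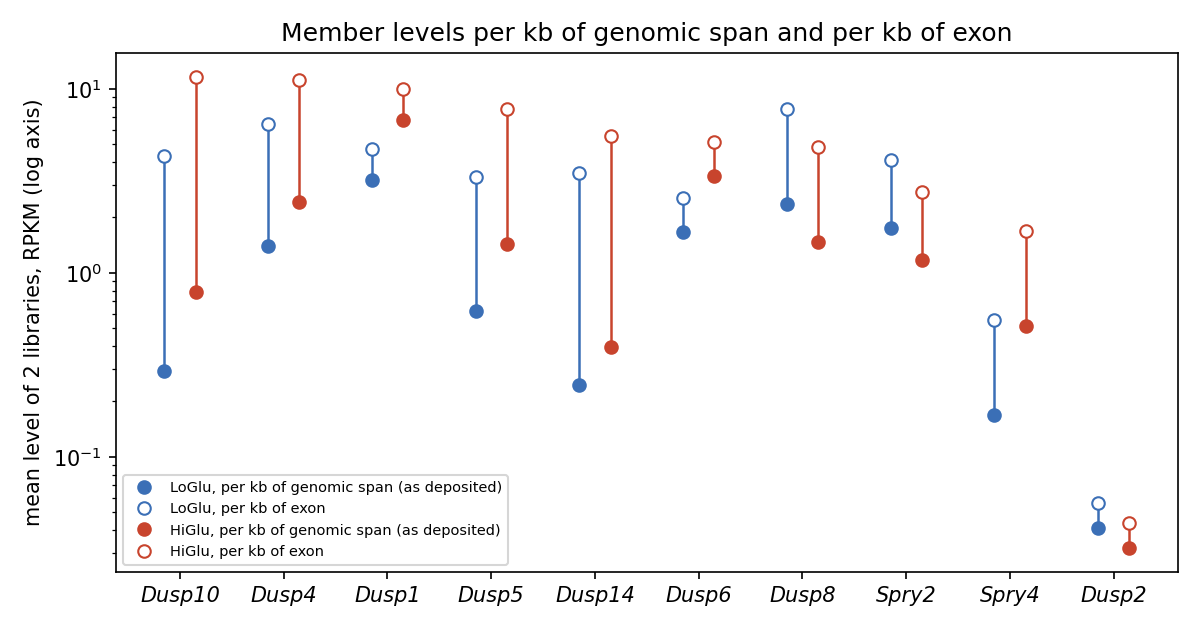
Mean level of each gene over the 2 LoGlu (blue) and the 2 HiGlu (red) libraries on a logarithmic axis, per kilobase of genomic span as deposited (filled) and per kilobase of exon (open), ordered by the exon level in HiGlu. The vertical lines, which join the same reads on the 2 scales, are longest for *Dusp10* and *Dusp14*, and *Dusp10* passes from 0.788 to 11.6 RPKM in HiGlu.

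The rest of the family and of the pathway was counted by lists. Of the 8 other MAP kinase phosphatase, Sprouty and Spred genes, 2 were above the minimum. *Spred3*, whose protein restrains the activation of Raf, rose from 0.868 ± 0.0644 to 2.06 ± 0.134 RPKM (log2 fold change 0.90 ± 0.08, adjusted p = 6.5e-04), and *Dusp7* fell. Like *Dusp5*, *Spred3* reached the minimum through the HiGlu libraries alone. Of those under the minimum, *Spred2* was 0.101 ± 0.0110 and 0.150 ± 0.00396 RPKM (voom 0.57 ± 0.13, adjusted p = 0.00147). *Spry1* (voom 0.14 ± 0.24, adjusted p = 0.661) and *Spred1* (-0.02 ± 0.15, adjusted p = 0.909) did not pass, and *Spry3* was listed at 0. Of 17 other dual specificity phosphatases, most of which do not act on MAP kinases, 10 were tested. None was higher, 5 were lower and 5 did not pass, with a median log2 fold change of -0.26 beside -0.11 for all transcripts. *Ssh2*, a phosphatase of the actin regulator cofilin, fell the furthest of them, from 3.26 ± 0.134 to 1.52 ± 0.155 RPKM (-0.90 ± 0.09, adjusted p = 9.9e-04), and *Dusp23* fell from 3.29 ± 0.295 to 2.00 ± 0.142 RPKM (-0.60 ± 0.10, adjusted p = 0.00529).

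The kinase cascades that these phosphatases act on are given beside the 33.4% of all transcripts that the main test called and the 42.7% that voom called, and a difference from those shares was not tested. In the ERK cascade 13 of 25 genes were tested, of which 2 were higher, none lower and 11 did not pass (median -0.04). The 2 that rose were *Rap1b*, a small GTPase (3.81 ± 0.344 to 7.88 ± 0.177 RPKM, 0.96 ± 0.11, adjusted p = 0.00127), and *Rasgrf1*, a calcium-responsive activator of Ras (9.83 ± 0.656 to 16.3 ± 0.961 RPKM, 0.70 ± 0.12, adjusted p = 0.00578). In the JNK and p38 cascade 10 of 22 genes were tested, of which none was higher, 2 were lower and 8 did not pass (median -0.12). *Map3k12*, a kinase upstream of JNK, fell from 3.50 ± 0.0574 to 2.57 ± 0.0539 RPKM (-0.38 ± 0.09, adjusted p = 0.0169), and *Mapk9*, which encodes JNK2, from 1.41 ± 0.0384 to 1.08 ± 0.0434 RPKM (-0.27 ± 0.08, adjusted p = 0.0325). By voom 3 genes of the ERK cascade were higher and 5 lower of 24 tested, and 2 of the JNK and p38 cascade higher and 3 lower of 22.

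Among 12 other negative feedback genes of receptor tyrosine kinase signalling, 4 were tested and 3 were higher (median 0.57), as were 10.7% of all transcripts. *Errfi1*, an inhibitor of the EGF receptor, rose from 1.66 ± 0.00651 to 3.66 ± 0.306 RPKM (0.94 ± 0.09, adjusted p = 7.8e-04), and *Socs3*, an inhibitor of cytokine receptors, from 4.22 ± 0.418 to 6.85 ± 0.0293 RPKM (0.64 ± 0.11, adjusted p = 0.00562). Of 16 receptors upstream, 2 were tested. *Glp1r* fell from 4.07 ± 0.209 to 2.98 ± 0.296 RPKM (-0.39 ± 0.10, adjusted p = 0.0266), and *Gipr* rose from 3.05 ± 0.235 to 6.02 ± 0.517 RPKM (0.88 ± 0.11, adjusted p = 0.00180). These encode the receptors of the incretin hormones. By voom 3 feedback genes were higher and 2 lower of 11, and 3 receptors were higher and 4 lower of 16. One of those 3 receptors, *Fgfr2*, had 897 to 1498 reconstructed reads at only 0.0051 to 0.0087 RPKM. *Dusp10* had 622 to 710 reads at 0.290 to 0.295 RPKM in LoGlu, over 41.3 kb. The span taken for *Fgfr2* was thus very long and its reads are likely overstated, so its voom call is unreliable. Without a minimum, limma gave *Fgfr2* an adjusted p of 0.373. The median of those 11 feedback genes by voom was -0.13, beside -0.12 for all transcripts, so the list as a whole did not rise.

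The immediate early and ERK target genes had the largest median of the lists. Of 26, 16 were tested, 12 were higher, none was lower and 4 did not pass, with a median log2 fold change of 1.23. Of the 12, 6 (*Fos*, *Fosl2*, *Nr4a1*, *Nr4a2*, *Crem* and *Sik1*) had a LoGlu mean under 1 RPKM and reached the minimum through HiGlu, where they were high, so this count and median are a description only. The largest rises were those of the transcription factor *Egr1*, from 1.17 ± 0.00170 to 8.89 ± 1.40 RPKM (2.48 ± 0.12, adjusted p = 6.1e-05), and of the nuclear receptor *Nr4a2*, from 0.416 ± 0.0375 to 3.74 ± 0.408 RPKM (2.21 ± 0.10, adjusted p = 3.3e-05). The 4 phosphatases that rose in the main test, at 0.62 to 0.97, lay below the median of that list in that test. By voom 17 of its 23 tested genes were higher and 2 lower (median 1.19). On that scale *Dusp5* (1.22), *Dusp10* (1.43) and *Spry4* (1.62) lay above the list median. *Dusp1* (1.08), *Dusp4* (0.80), *Dusp6* (1.02) and *Dusp14* (0.67) lay below it.

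**Figure D4:**
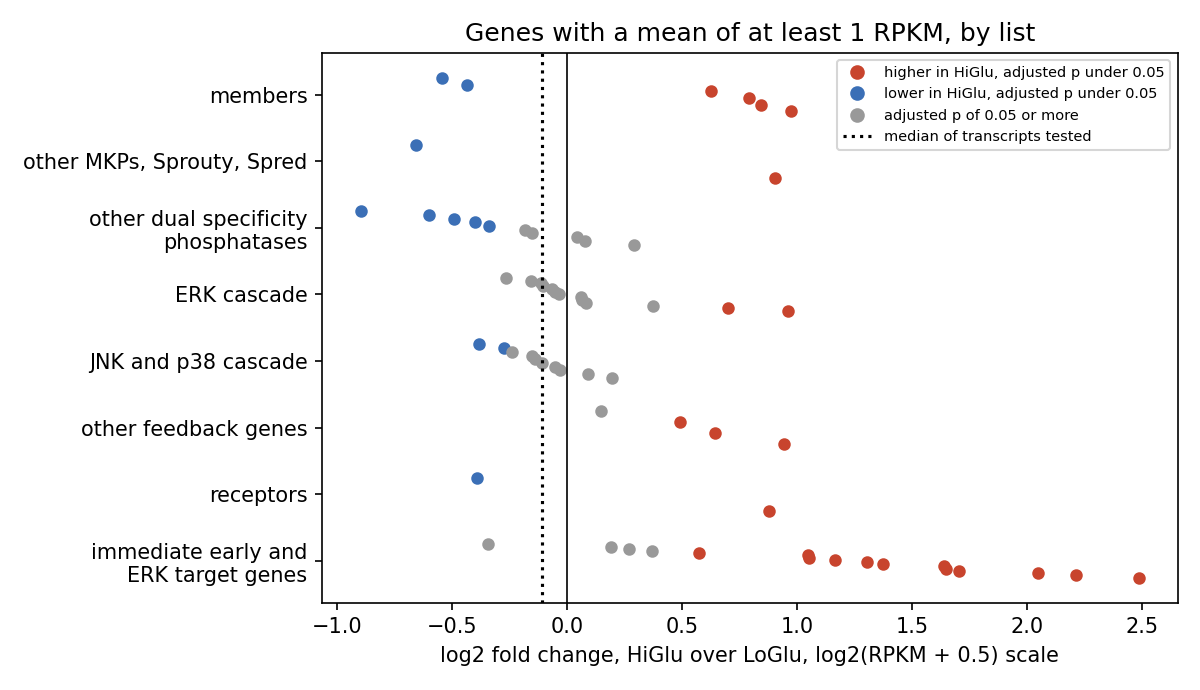
Log2 fold change of HiGlu over LoGlu on the log2(RPKM + 0.5) scale for the genes of each list averaging 1 RPKM or more, with 1 point per gene, coloured red (higher) or blue (lower) where the adjusted p-value was under 0.05 and grey otherwise, and the median of all transcripts tested as a dotted line at -0.11. The 10 genes described here (top row, 6 tested) fall on both sides, the ERK and JNK and p38 cascades cluster near the median, and 12 of 16 immediate early genes are red, up to 2.48 for *Egr1*.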

How the data were processed

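RNA-seq libraries of total RNA from mouse islets (TruSeq v2, per the labels) were compared between LoGlu and HiGlu, 2 libraries each. The authors deposited RPKM values per RefSeq transcript and lncRNA. The submitters' processing notes name STAR, bedtools, DESeq and mm9. Versions and use of strand are not given in the sources used here. Identical entries of a symbol were used together as 1 entry (5876 of 33923 left out).

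From these, log2(RPKM + 0.5) was computed, and limma 3.58.1 (R 4.3.3) was run on transcripts averaging 1 RPKM or more (variance trend, empirical Bayes, two-sided, Benjamini-Hochberg at 0.05), and fold changes are on that scale, which understates low genes. An exact permutation test of 2 against 2 cannot go below 0.333. Depth came from the RPKM steps of 128 to 130 of the 145 lncRNAs per library, whose values were all whole to within 0.1 read. Reads were reconstructed from RPKM, depth and span (gencode annotation of mm9) for 88.5% of entries and, at a mean of 20 or more, tested with voom. They are estimates, since annotated spans can differ from those the authors used. Where the span taken was too long, as was likely for *Fgfr2*, the reads are overstated and a voom call can rest on that. Intervals cover counting error only. Python 3.11.15 served for the rest, with scipy 1.17.1, numpy 2.4.6, pandas 2.3.3 and matplotlib 3.10.9.

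The 10 genes, the lists, the markers and the motifs were chosen with earlier results of these data known. Named beside the 10 genes are the lncRNA nearest to one of them, relatives of the family, and per list the 2 largest rises and falls past the threshold. A few other list genes and markers are named to show the limit of a count or sum. The values of 1 listed gene are not reported here. Alternatives were other scalings, minimums, pseudocounts of 0.1 and 1 RPKM, thresholds, no trend, the replicate block, voom with and without it, and each library left out, plus, chosen after seeing the data, all entries as deposited.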

Additional observations from a re-analysis of the deposited data

How the results depend on the processing

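The direction of each of the 10 genes was the same under every alternative that gave it a value. Across alternatives, for these genes and the lncRNA nearest *Dusp10* together, 104 single values kept their side of the threshold and 5 lost it. Those 5 were *Dusp6*, *Dusp8* and *Spry2* without a minimum (adjusted p = 0.0595, 0.0674 and 0.0796) and *Dusp8* and *Spry2* at a threshold of 0.01. Each of the 6 called genes kept its direction with any 1 library left out. In those fits the lone library of a group is assumed to vary like the other group. Their adjusted p-values were often lower than with all 4 libraries, so their calls, counted among the 104, are no check of a call. *Dusp5* leaves the test where every library must reach 1 RPKM. The transcripts changed numbered 2628, and 7475 by voom, 1191 at 0.01 and 1825 to 2579 with 1 library left out, and the listed pathway genes changed 28, and 55 by voom. The count without replicate 2 of HiGlu was 1825 and without replicate 1 of LoGlu 2125.

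The replicate number as a block gave 4067 changed transcripts, and with voom 10160 and 76 pathway genes. It changed no call of the 6 genes in the main test, whose adjusted p-values with the block were 0.0101 to 0.0263 in limma, nor of the 9 genes tested by voom. Libraries of the same number deviated together (correlation 0.31), but 2 pairs and a shared number do not establish a pairing. Other entries of a symbol could not be tried, since each gene has 1. With 2 libraries per group the spread is estimated from few samples, and at this depth a change of *Dusp2* was not detectable.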
